A study of Arabidopsis thaliana with 12 samples.

Results

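Single-gene probes with lower values in the psae2 mutant than in the wild type were examined in an array study of Arabidopsis thaliana total RNA. The psae2 mutant, in ecotype Columbia 0, lacks the photosystem I protein PSI-E2, and the WT is of the same ecotype. There were 12 samples, 6 of psae2 and 6 of WT, each numbered 1 to 6 in its title. The sources used here give no tissue, age or growth conditions. Numbers 1 and 2, 3 and 4, and 5 and 6 of a genotype resembled each other more than the other samples did, so they were averaged into 3 number pairs per genotype. A probe was chosen when the platform annotation listed 1 gene for it and psae2 minus WT was -0.25 or less in all 3 number pairs, in log2 units of the normalized intensity. Of 692 single-gene probes, 40 met this limit, and the 5 of them for AT5G52810, CUTA, DI21, AT1G01250 and CRR21 were set aside. The other 35 of the 3439 probes on the array are described here. NdhS, also named for setting aside, did not meet the limit.

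Photosystem I takes electrons from plastocyanin and passes them to ferredoxin on the stromal side of the thylakoid membrane, and PSI-E is one of the small stromal subunits at which ferredoxin docks. Arabidopsis has a pair of nuclear genes for this subunit, PSAE1 and PSAE2. Nuclear genes supply many of the proteins of the chloroplast, and their transcript levels are known to respond to the state of photosynthesis. The roles named here belong to several pathways, and a shared pathway was not tested over the 35 genes below. They code for enzymes of small molecules and lipids, for proteins of membranes and organelles, for protein-modifying factors, for a receptor kinase and for nuclear proteins, and several have no role that is given here. The reference table holds no protein descriptions, so the roles named are general background.

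Deposited intensities summed to between 2972 and 3610 per sample. In the same normalization, 220 of the 3010 tested probes (7.31%) and 40 of the 603 tested single-gene probes (6.63%) met the limit of -0.25. The mirrored limit of 0.25 or more in all 3 pairs was met by 41 of the 603 single-gene probes (6.8%). The array listed 0 probes for PSAE2, alone or with other genes, so the mutated gene itself was not analysed here. Of the markers of leaf, root, flower and pollen, seed and senescence listed for a check of the tissue, 0 had a probe of their own. The part of tissue makeup in the values was therefore not tested, and in bulk RNA fewer cells of a type and less RNA per cell cannot be told apart.

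The 35 differences were small to moderate. The mean difference over the 3 pairs ran between -1.10 and -0.28, that is between 2.14-fold and 1.22-fold lower in psae2, and its median was -0.50, against 0.013 over all 3010 tested probes. Only AT3G52070 and AT5G66090 were past 2-fold, 17 of the 35 had a mean difference of -0.5 or less, and 18 lay between that value and the limit. The probes were chosen by these differences, which are therefore a description and carry no test. Each probe has its own scale, so levels of different probes are not set against each other.

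Every psae2 sample lay below every WT sample for 18 of the 35 probes, where 5.88% of all tested probes did so. In the deposited values, before any scaling, this held for 12 of the 35, where 2.66% of all tested probes did so, and 9 probes were apart in both. At the level of single numbers, psae2 was below the WT at all 6 numbers for 33 of the 35 probes, where 17.1% of all tested probes were. The exceptions, each lower at 5 of 6 numbers, were AT2G03140 and AT1G11470. In AT2G03140, number 5 was under the floor in both genotypes. In AT1G11470, both samples numbered 2 had the same normalized value. As deposited, psae2 was the higher there, with 0.162 against 0.127 in the WT. Nothing is read from these shares, since the limit in the 3 pairs nearly fixes them.

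**Figure D1:**
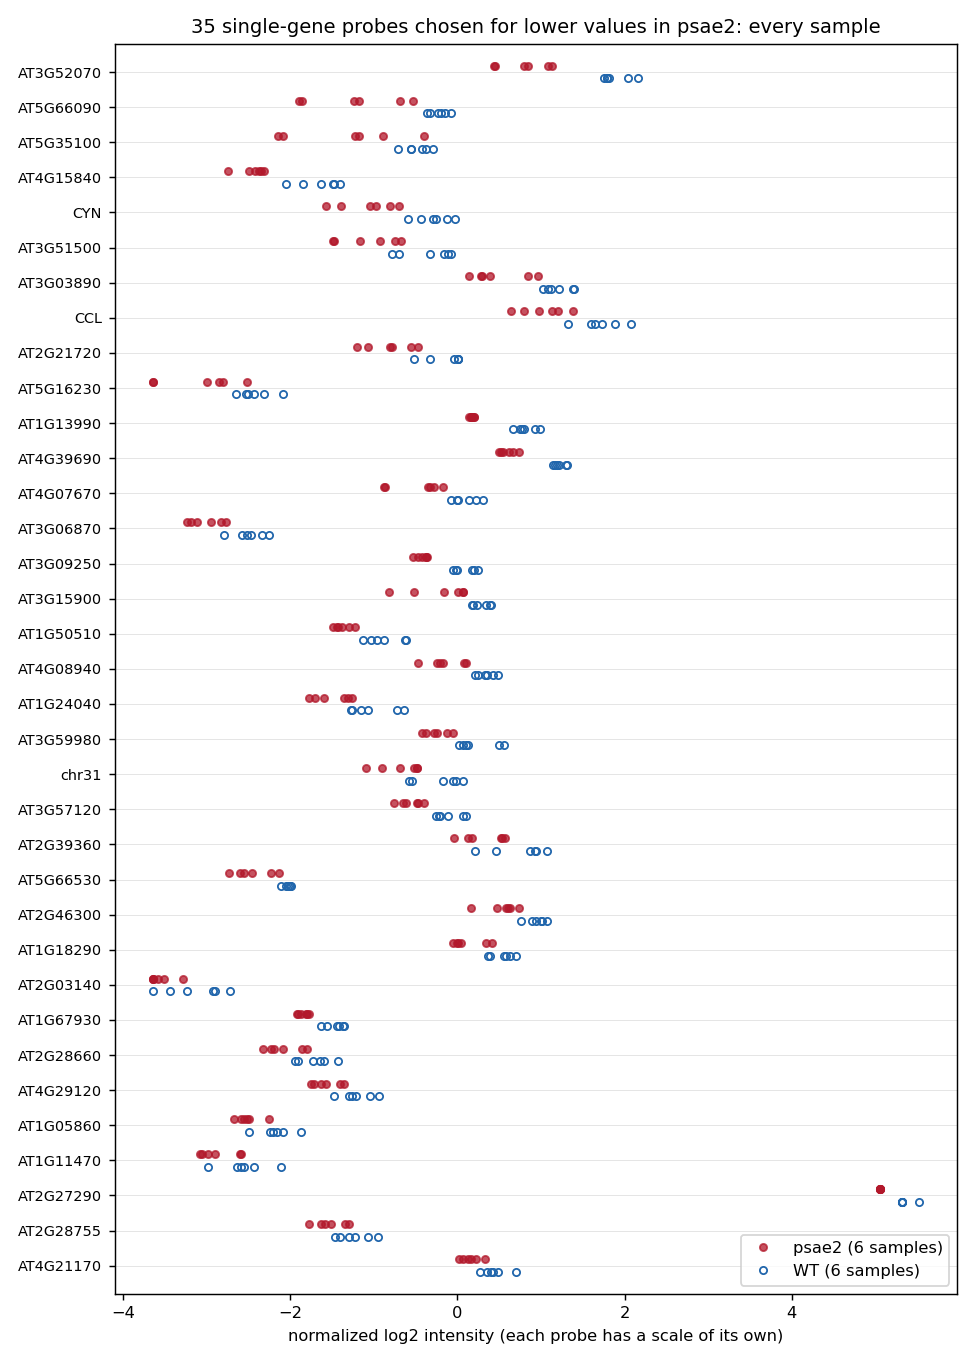
Normalized log2 intensity (x axis) of the 35 probes (1 row each, the largest mean decrease on top) in 6 psae2 samples (filled, upper points of a row) and 6 WT samples (open, lower points). All psae2 samples lay below all WT samples for 18 of the 35 probes, for example AT3G52070 and AT1G13990, and AT2G03140 and AT1G11470 are among those that overlapped.

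Among the genes of metabolic enzymes, CYN had the largest mean difference. It codes for cyanase, which breaks down cyanate with bicarbonate to ammonia and carbon dioxide. The normalized log2 intensity of CYN lay between -1.57 and -0.70 in psae2 samples (median -1.01), against -0.59 to -0.026 in WT samples (median -0.27). The genotypes did not overlap, and the highest psae2 value, that of number 5, lay 0.10 below the lowest WT value, that of number 2. By number pair the CYN difference was -0.97 in 1 and 2, -0.80 in 3 and 4 and -0.62 in 5 and 6, a mean of -0.79 or 1.73-fold lower.

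AT5G16230 belongs to the family of stearoyl-acyl carrier protein desaturases, plastid enzymes that put a double bond into fatty acids. Its values lay between -3.64 and -2.52 in psae2 (median -2.92), against -2.64 to -2.08 in the WT (median -2.47). The psae2 samples numbered 5 and 6 were under the floor, the lower bound set for dim signals, so their difference of -1.06 is taken against the floor. In the other pairs it was -0.40 and -0.51, and samples of the genotypes overlapped by 0.13 (highest psae2 minus lowest WT value).

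Further enzyme genes had smaller differences. AT1G50510, a glycosidase of pseudouridine phosphate that acts in the breakdown of this modified nucleoside, averaged -1.38 ± 0.099 in psae2 and -0.87 ± 0.23 in the WT (SD over pair means, n = 3 each). Its difference was -0.82 in numbers 5 and 6 and -0.35 in numbers 1 and 2, and the genotypes did not overlap. AT5G66530, an aldose epimerase-like protein, averaged -2.45 ± 0.12 in psae2 and -2.03 ± 0.021 in the WT (SD, n = 3 each). Its WT samples were close together, between -2.11 and -1.99, and the psae2 samples were spread between -2.74 and -2.13. These extremes were psae2 samples 2 and 1 of the same pair, so the SD over pair means does not show this spread. The difference of AT5G66530 was -0.52 without psae2 sample 1 and -0.32 without psae2 sample 2. As deposited, psae2 sample 1, at 0.289, was above all WT samples (highest 0.258). For AT4G29120, which resembles hydroxyisobutyrate dehydrogenases, the difference was -0.35, -0.39 and -0.37 in the pairs, nearly even, although samples of the genotypes overlapped.

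AT3G03890 codes for a protein of the flavin-binding split-barrel fold, related to the HugZ family of haem-degrading enzymes. Its values lay between 0.13 and 0.97 in psae2 (median 0.34), against 1.02 to 1.39 in the WT (median 1.17). The genotypes did not overlap, but the psae2 samples numbered 1 and 2, at 0.85 and 0.97, were close to the lowest WT sample. The difference was -0.48, -0.77 and -0.91 in the pairs in the order of their numbers.

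Proteins of organelles and membranes included AT4G39690, the MIC60-type subunit of the complex that shapes the junctions of mitochondrial cristae. AT4G39690 had between 0.50 and 0.74 in psae2 samples (median 0.58), against 1.15 to 1.31 in WT samples (median 1.20). Both genotypes were tight, with an SD of the pair means of 0.083 in psae2 and 0.073 in the WT, and a gap of 0.41 lay between them. The difference was -0.57, -0.79 and -0.50. AT1G67930, a subunit of the conserved oligomeric Golgi complex, which tethers vesicles within the Golgi, averaged -1.85 ± 0.063 in psae2 and -1.46 ± 0.09 in the WT (SD, n = 3 each). It was the member closest to the limit, with -0.26 in numbers 5 and 6. AT2G46300, similar to late embryogenesis abundant proteins, had a mean difference of -0.41, and AT2G28660, with a heavy-metal-associated domain, one of -0.37.

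For AT2G27290, which has no role given here, normalization left few distinct values. Its deposited intensities were 30.5 to 34.4 in psae2 (median 32.4), against 37.3 to 43.8 in the WT (median 39.3), without overlap. After normalization all 6 psae2 samples had the value 5.05 and WT samples 1 to 5 the value 5.32. Quantile normalization gives each rank 1 value, so these are samples in which the probe had the same rank. The resulting spread, 0 in psae2, is therefore not a measure of precision. Its difference was -0.31 when quantile-normalized, -0.29 as deposited and -0.50 with arrays centred on their medians.

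Of the genes for factors that fold, modify or turn over proteins, AT5G35100 had the largest mean difference. It codes for a cyclophilin, a family of enzymes that isomerise peptide bonds at proline. Values of AT5G35100 lay between -2.14 and -0.40 in psae2 (median -1.20), against -0.71 to -0.29 in the WT (median -0.49). The psae2 sample numbered 1, at -0.40, was above 4 of the 6 WT samples, whereas the psae2 samples numbered 2 to 6 were below all of them. The mean difference of -0.83 was made up of unequal pairs, described with the other varying probes.

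AT4G15840, with the BTB/POZ domain found in adaptors of ubiquitin ligases, had a more even difference. Its values lay between -2.74 and -2.31 in psae2 (median -2.40), against -2.05 to -1.40 in the WT (median -1.55). The genotypes did not overlap, and the lowest samples of each genotype were those numbered 1 and 2. The difference was -0.67, -0.79 and -0.94, a mean of -0.80 or 1.74-fold lower.

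AT1G24040, an acetyltransferase of the plastid GNAT family, averaged -1.50 ± 0.20 in psae2 and -1.02 ± 0.29 in the WT (SD, n = 3 each). Its genotypes overlapped by 0.012, and the level of both was higher in numbers 1 and 2 than in the other pairs. AT4G07670, with a protease-associated domain, had -0.27 and -0.32 in the first and second pair but -1.13 in numbers 5 and 6.

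The nuclear and RNA-linked genes included chr31, a chromatin remodeller of the SNF2 type in the CLASSY family, which acts in RNA-directed DNA methylation. For chr31 the values lay between -1.09 and -0.48 in psae2 (median -0.60), against -0.58 to 0.067 in the WT (median -0.11). The WT samples numbered 1 and 2 lay among the psae2 samples numbered 3 to 6, so the genotypes overlapped by 0.095 although the difference was nearly the same in each pair, -0.44, -0.47 and -0.53. AT3G59980, which has a nucleic-acid-binding fold, had a mean difference of -0.48 and no overlap. AT4G21170, of the pentatricopeptide repeat family that binds organelle RNA, had the smallest mean difference of the 35, -0.28, and AT3G09250, of the nuclear transport factor fold, one of -0.52.

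CCL, a gene whose transcript is under clock control and is known for its rapid decay, lay between 0.64 and 1.38 in psae2 (median 1.05), against 1.32 to 2.07 in the WT (median 1.68). Psae2 sample 2 was above WT sample 5, and within each number the psae2 sample was the lower. The CCL difference was -0.56, -0.75 and -0.74, a mean of -0.69. The sources used here give no time of harvest, and the part of harvest time in the CCL values was not tested.

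Among signalling genes, AT2G39360, a receptor-like kinase of the family that includes FERONIA, averaged 0.32 ± 0.25 in psae2 and 0.75 ± 0.36 in the WT (SD, n = 3 each). Its WT samples numbered 1 and 2, at 0.46 and 0.21, were below several psae2 samples, and its difference was -0.29 in that pair and -0.45 and -0.55 in the others. The kinase gene AT3G57120 averaged -0.56 ± 0.13 in psae2 and -0.10 ± 0.17 in the WT (SD, n = 3 each), without overlap.

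The 2 largest mean differences and several others belonged to genes without a role given here. AT3G52070 lay between 0.44 and 1.13 in psae2 samples (median 0.82), against 1.75 to 2.16 in WT samples (median 1.80). A gap of 0.62 separated the genotypes, the widest of the 35. Deposited intensities of AT3G52070 were 1.52 to 2.18 in psae2, against 3.06 to 4.76 in the WT, also apart.

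AT5G66090 lay between -1.89 and -0.53 in psae2 (median -1.20), against -0.37 to -0.077 in the WT (median -0.21). Its psae2 samples were 3 separate pairs of close values, while all 6 WT samples lay together. AT3G51500 lay between -1.48 and -0.67 in psae2 (median -1.05), against -0.78 to -0.081 in the WT (median -0.24). The WT samples numbered 1 and 2 were in the range of the psae2 samples, so the genotypes overlapped by 0.11.

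AT2G21720 lay between -1.20 and -0.48 in psae2 (median -0.80), against -0.51 to 0.013 in the WT (median -0.015). The genotypes overlapped by 0.039 after normalization and were apart as deposited, at 0.525 to 0.693 in psae2 against 0.762 to 0.96 in the WT. AT1G13990 lay between 0.14 and 0.20 in psae2 (median 0.17), against 0.67 to 0.99 in the WT (median 0.78). Its psae2 samples were the more alike, with an SD of the pair means of 0.021 in psae2 and 0.13 in the WT, and its gap of 0.47 followed that of AT3G52070.

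The mean differences of the other genes without a role given here were -0.52 for AT3G06870, -0.51 for AT3G15900, -0.50 for AT4G08940, -0.41 for AT1G18290 and -0.41 for AT2G03140. For AT1G05860, AT1G11470 and AT2G28755 they were -0.33, -0.32 and -0.29. Values of AT3G15900 were -0.82 to 0.073 in psae2, against 0.18 to 0.40 in the WT, and those of AT4G08940 were -0.46 to 0.10 in psae2, against 0.21 to 0.48 in the WT; neither overlapped. Dim signal touched AT2G03140, which was under the floor in psae2 samples 1, 3 and 5 and in WT sample 5, and its difference is partly one against the floor. Its values were -3.64 to -3.27 in psae2, against -3.64 to -2.72 in the WT, and the genotypes overlapped. The difference of AT2G03140 also moved with single samples: it was -0.25 without WT sample 6 and -0.57 without WT sample 5. Together with AT5G16230 it was 1 of 2 members with any sample under the floor, and 0 of the 35 had a value of exactly 0.

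The differences varied between number pairs. The strongest pair was numbers 5 and 6 for 16 of the 35 probes, numbers 1 and 2 for 12 and numbers 3 and 4 for 7, and the median difference over the 35 was -0.44 in numbers 1 and 2, -0.47 in numbers 3 and 4 and -0.52 in numbers 5 and 6. For 10 probes the strongest pair was over 2 times the weakest, and for 13 it was at most 1.5 times. Of those 10, 7 were strongest in numbers 5 and 6, among them AT5G35100 (-0.31, -0.65 and -1.54), AT5G66090 (-0.35, -1.09 and -1.58) and AT3G51500 (-0.46, -0.47 and -1.22). Without numbers 5 and 6 the mean difference was -0.47 for AT5G35100, -0.46 for AT3G51500, -0.29 for AT4G07670 and -0.30 for AT3G15900, each over 1.5 times smaller than over all numbers. AT3G52070 was strongest in numbers 1 and 2 (-1.66, -0.98 and -0.66).

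**Figure D2:**
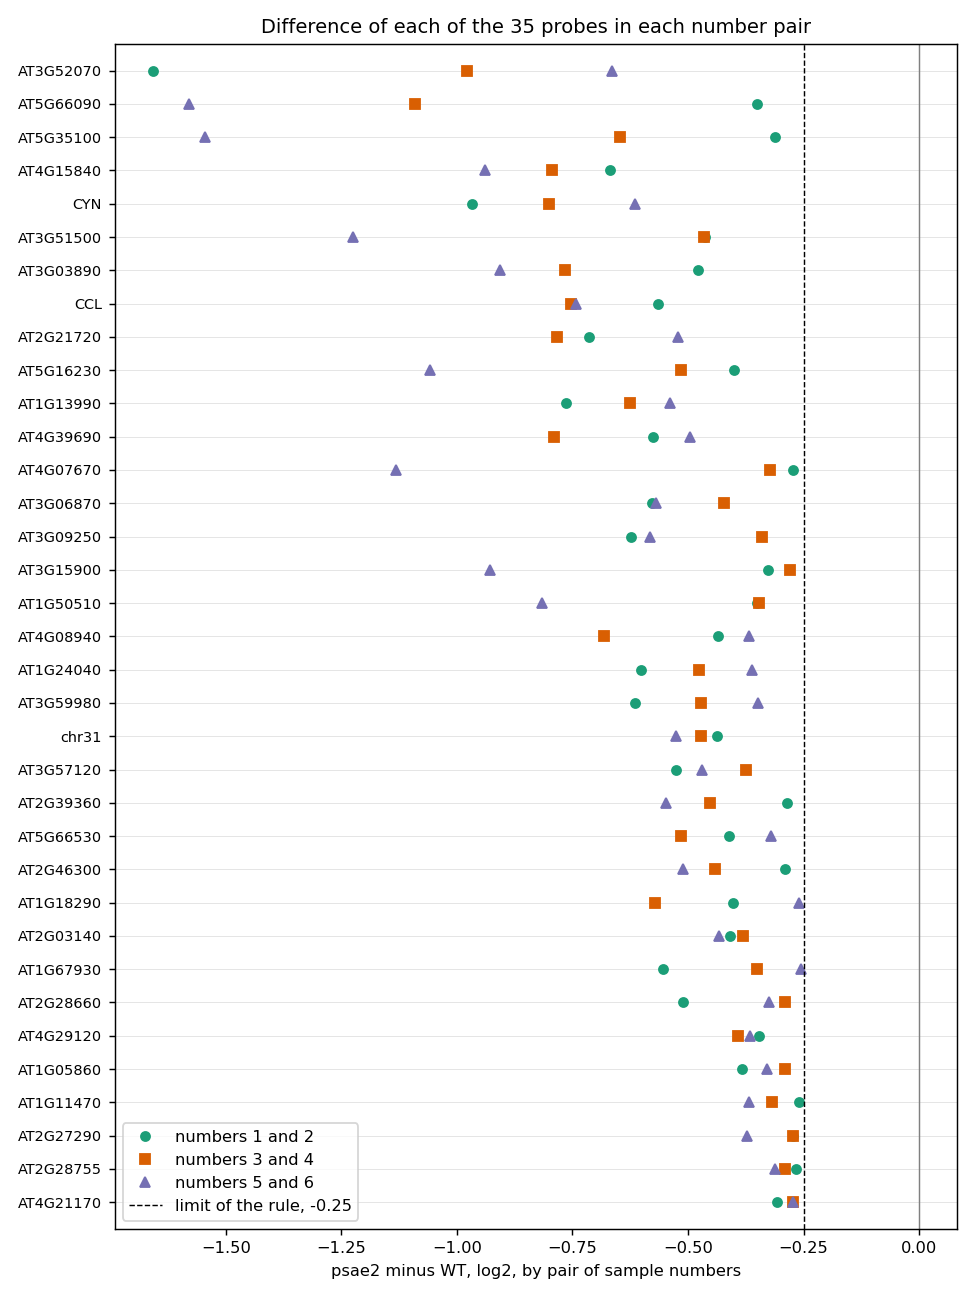
Difference psae2 minus WT in log2 units (x axis) of the 35 probes (1 row each) in numbers 1 and 2 (circles), 3 and 4 (squares) and 5 and 6 (triangles), with the limit of -0.25 as a dashed line. AT5G66090 ran between -1.58 and -0.35, whereas chr31 stayed between -0.53 and -0.44; where 2 symbols share a value the later drawn covers the other.

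In 7 of these 10 probes the pair means were more spread in psae2 than in the WT. The pair means of AT5G66090 were -0.61, -1.20 and -1.88 in psae2, against -0.26, -0.11 and -0.30 in the WT. Those of AT5G35100 were -0.64, -1.20 and -2.11 in psae2, against -0.33, -0.55 and -0.57 in the WT. For AT3G15900, the psae2 pair means were 0.068, -0.074 and -0.67, against 0.39, 0.21 and 0.26 in the WT. In these probes the WT level stayed within a narrower band and the psae2 level was lowest in numbers 5 and 6. AT1G50510 was the other way round, with -1.43, -1.26 and -1.44 in psae2 against -1.08, -0.92 and -0.62 in the WT. Over all 35 probes the psae2 pair means were the more spread in 18. The labels do not say what the numbers stand for, so the part of batch, culture or day in these shifts was not tested.

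**Figure D3:**
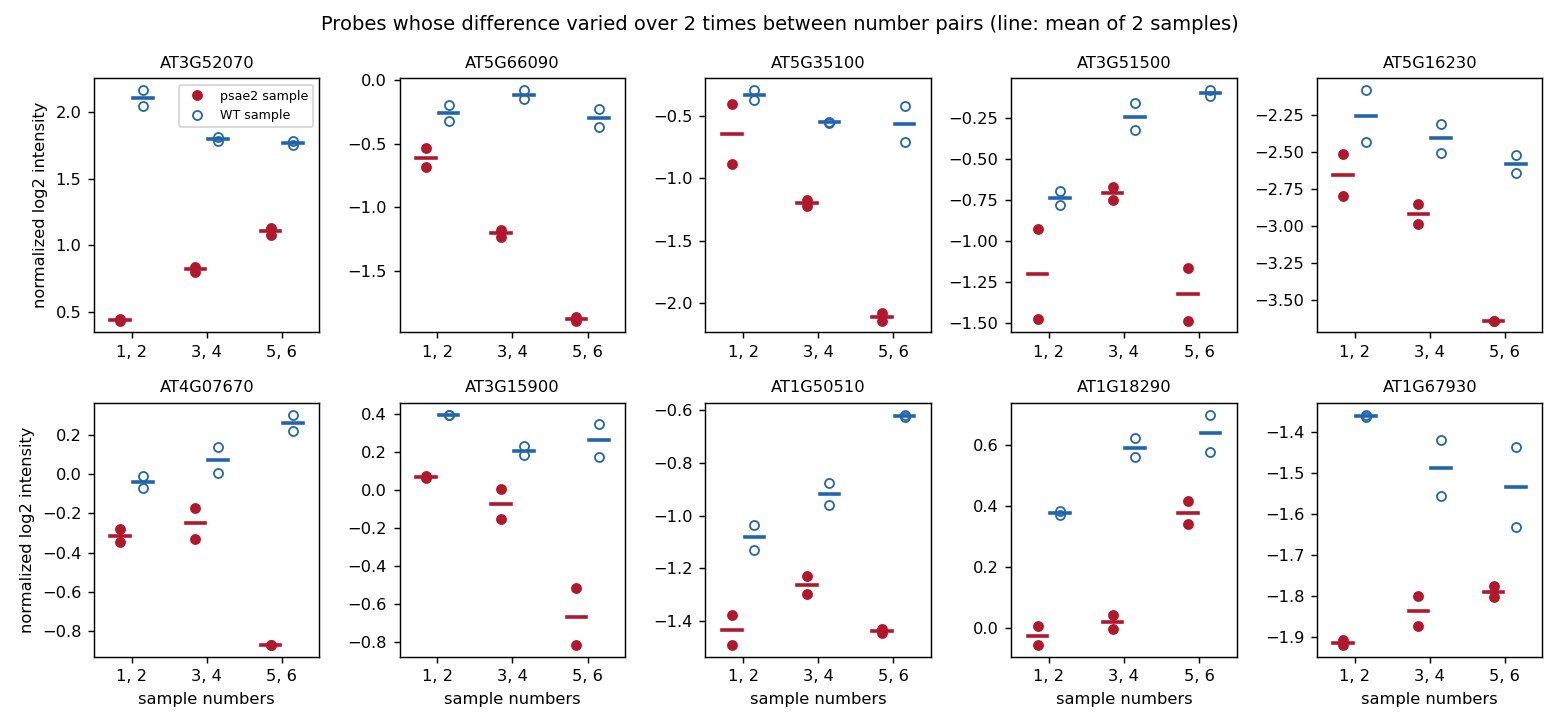
Normalized log2 intensity (y axis, a scale of its own in each panel) against the sample numbers (x axis) for the 10 probes whose difference varied over 2 times between number pairs; points are samples (psae2 filled, WT open) and lines the means of 2 samples. In AT5G66090, AT5G35100 and AT4G07670 the psae2 samples numbered 5 and 6 were the lowest while the WT samples stayed together or higher; in AT3G52070 the psae2 samples numbered 1 and 2 were the lowest.

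The size of a shift between number pairs that both genotypes share is a measure the choice of probes did not use. It was tested with limma on the 6 pair means with genotype as a covariate, and 13 of 3010 probes passed at an adjusted p under 0.05 (0.432%). Of the 35 probes 0 passed, with 0.203 as the lowest adjusted p. At an unadjusted p under 0.05 there were 7 of 35 (20%), near the 19.7% of all tested probes. The p-values also depend on how psae2 minus WT varied between the pairs. The probes were chosen by those differences, so the p-values are not free of the choice. Nothing is therefore read from the counts and shares of the 35 that passed. The span between the highest and lowest pair mean over both genotypes had a median of 0.343 over the 35 and 0.313 over all tested probes, and for 6 of the 35 it was larger than the mean decrease. The lowest p-values, named after they were seen, were those of chr31, with -0.78, -0.35 and -0.24 in the pairs (adjusted p = 0.203 in limma), and of AT2G39360, with 0.19, 0.78 and 0.63 (adjusted p = 0.208 in limma). Both had overlapping genotypes although psae2 was the lower at each number. Samples of neighbouring numbers differed by little: the SD between them had a median of 0.0891 in psae2 and 0.0822 in the WT over the 35 probes, against 0.113 in psae2 and 0.104 in the WT over all tested probes.

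The size of the 35 differences depended on the scaling of the arrays, by little for some probes and by more for others. The median difference over all tested probes was 0.173 as deposited, against 0.013 after quantile normalization and -0.034 with arrays centred on their medians. The median over the 35 was -0.36 as deposited and -0.56 when centred, and psae2 was the lower on average for 35 of 35 in each of these scalings. Nothing is read from that count, since the 35 were chosen for a decrease in each pair. As deposited, 14 of the 35 still met the limit in all 3 pairs, and 33 did when centred. The smallest deposited differences were -0.087 for AT1G11470, -0.088 for AT2G28755 and -0.12 for AT1G05860. For AT3G52070 and AT5G66090 they were -1.02 and -0.89.

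**Figure D4:**
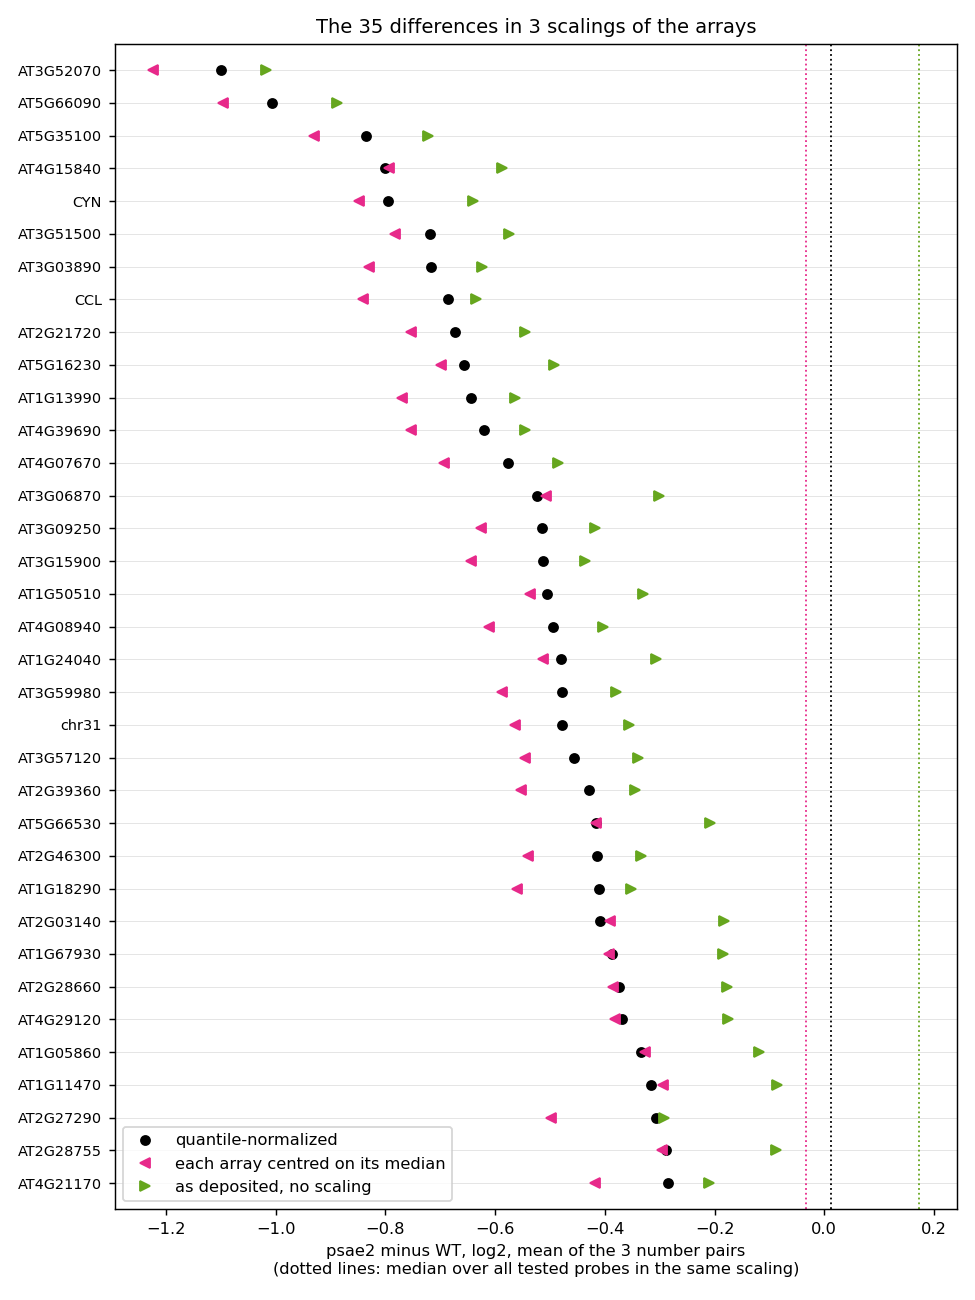
Mean difference psae2 minus WT in log2 units (x axis) of the 35 probes (1 row each) after quantile normalization (circles), with arrays centred on their medians (left-pointing) and as deposited (right-pointing); dotted lines give the median over the 3010 tested probes in the same scaling, 0.013, -0.034 and 0.173. All 35 stay below 0, and AT1G11470 and AT2G28755 come closest to it as deposited.

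Values just inside the limit, taken as the weakest of the 3 pairs, were -0.26 each for AT1G67930, AT1G18290 and AT1G11470. Just outside it lay AT5G11010 with -0.249, CSLA01 with -0.249 and AT4G38670 with -0.244. The mean difference of AT4G38670 was -0.67, larger than that of most of the 35, so the list is bounded by the weakest pair and not by the mean.

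The genes lay on all 5 nuclear chromosomes, with 8, 7, 10, 6 and 4 of the 35 on chromosomes 1 to 5, that is 22.9%, 20%, 28.6%, 17.1% and 11.4%. The tested single-gene probes had 25.2%, 18.8%, 17.9%, 18.9% and 19.1% there. In the gene order of TAIR10.1 the closest members were AT2G28660 and AT2G28755, with 9 protein-coding genes between them, followed by AT5G66090 and AT5G66530 with 43. AT2G21720 was the member nearest to PSAE2, with 168 protein-coding genes between.

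A list of genes of photosystems, antenna, cytochrome b6f, ATP synthase, electron carriers and the Calvin cycle was matched by gene symbol. It did not include CRR21 or NdhS. Of the listed genes, 7 had a tested probe of their own and 0 of these were among the 35. The 7 were PSAN, PSBY, PSB27, LHB1B2, PRK, PSBW and LPA19. None of them belongs to cytochrome b6f, ATP synthase or the electron carriers, so the values below do not cover these. Over all tested single-gene probes, 6.63% met the limit, so a count of 0 in 7 says little. In limma over 12 samples 0 of the 7 passed as lower and 1 as higher, where 10.4% and 11.9% of all tested probes passed as lower and higher. At an unadjusted p under 0.05 there were 1 lower and 2 higher, where 16.8% and 18.9% of all tested probes were. With pairs averaged 0 of the 7 passed, where 1.4% and 1.23% of all tested probes passed as lower and higher. The 7 had a median difference of 0.0095.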

How the data were processed

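Total RNA of 6 psae2 and 6 WT samples had been measured on arrays. The authors deposited linear intensity values between 0 and 100, and 0 columns belonged to no sample. The sources used here do not say how background and scale were treated. Column medians differed (0.304 to 0.448). Whether this came from the arrays or from the samples was not tested, and normalization takes it out in either case. The floor of an array was the 5th percentile of its values above 0 (0.0638 to 0.105); lower values were raised to it. Values were then log2-transformed and quantile-normalized over all 3439 probes with limma 3.58.1 in R 4.3.3. Tests left out 429 probes that were under the floor in all 12 samples, so 3010 were tested. Figures were drawn with matplotlib 3.10.9. The number of arrays limits the precision.

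Of the probes, 692 had 1 gene in the platform annotation, 870 had several and 1877 had none, which leaves those unnamed here. Of the 692, 691 matched the reference table (TAIR10.1), as did all 35 members. Values of every sample were summarised for the 12 members with the most negative mean difference and for those with a symbol of their own (CYN, CCL and chr31); other members are given by mean difference, and some also by range or pair differences.

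Samples of the same number in both genotypes deviated together from their group means (correlation 0.345 to 0.535 at all 6 numbers), which the labels do not state. Different numbers were not compared across genotypes. Pairing by single number and a deviation shared by a whole number pair were therefore not told apart here. Correlations within a genotype were 0.238 to 0.708 for neighbouring numbers and -0.682 to -0.122 for the rest; neighbouring numbers may be technical repeats. P-values then measure only the spread between these samples, which may be technical. Tests used lmFit and eBayes with Benjamini-Hochberg adjustment over all tested probes and were tested on simulated data. The psae2 against WT test over 12 samples gives only a background here. The members and lists were chosen with earlier results of these data known. Alternatives were other scalings, an offset in place of the floor, averaged pairs, the number as a block, other limits and samples left out.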

Additional observations from a re-analysis of the deposited data

Results flagged for a closer look

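Each genotype of the 35 probes was checked for 1 sample set apart from the other 5 with Dixon's ratio and its critical value for 6 samples. Sets without spread were left out, which gave 69 sets, and 2 were past the limit. In independent samples chance alone gives about 1 in 20. Neighbouring numbers may be technical repeats, so that rate may not hold here. For AT2G03140, psae2 sample 4 was at -3.27, and the other psae2 samples were at -3.64 to -3.51, where -3.64 is the floor (ratio 0.633). For AT2G27290, WT sample 6 was at 5.52 and the other WT samples were all at 5.32 (ratio 1). Values of this probe are set by its rank, so the ratio compares ranks of the brightest probes.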

How the results depend on the processing

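The median difference over the 35 probes, -0.50, was -0.56 with arrays centred on their medians, -0.36 as deposited and -0.43 with an offset of 0.0814 in place of the floor; it was -0.51 to -0.48 with 1 sample left out. None of the 35 changed direction in any of the 18 settings run on them. Nothing is read from this, since the choice by a decrease in all 3 pairs nearly fixes it. The limit was met by 15 single-gene probes as deposited (the 6 genes set aside not counted), 6 at -0.5 or less in all 3 pairs, 79 without numbers 1 and 2, 63 without numbers 5 and 6, and 33 to 39 with 1 sample left out. A stricter limit lowers a count and fewer pairs raise it by construction. Of the 35, 30 to 33 stayed within the limit with 1 sample left out and 27 with the offset. Leaving out a number pair says nothing about this, since the 35 were chosen for meeting the limit in each pair. With the replicate block, that is with the limit required at each of the 6 numbers, 21 met it. In the limma test of psae2 against WT, 313 probes were lower over 12 samples, 484 with the replicate block, 42 with pairs averaged, 135 as deposited, 134 without numbers 3 and 4, and 256 to 323 with 1 sample left out. The shift between number pairs was called for 13 probes, for 26 as deposited and for 0 to 3 with 1 sample left out; for 0 of the 35 in each of these 15 settings (lowest adjusted p of a member 0.0843 as deposited and up to 0.256 in the others, limma). Apart from what the settings do by construction, the cause was not tested. Samples under the floor limit AT5G16230 and AT2G03140. Some dim members without such samples also depended on how low values were treated. With the offset in place of the floor, AT3G06870 went from -0.52 to -0.34 and AT1G11470 from -0.32 to -0.21. AT4G15840 went from -0.80 to -0.60, whereas the brighter AT3G52070 changed little, from -1.10 to -1.06.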
